A study of Mus musculus with 18 samples.

Results

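Livers of mice given the HF diet with Ex were compared with livers of mice on the LF diet alone, to ask what of the high-fat state was present despite exercise. The comparison takes 6 of the 18 libraries of the series, 3 titled HF+Ex and 3 titled LF, and covers all 10355 genes that reached 1 RPKM in at least 3 of the 18 libraries. Alb was left out. The labels hold abbreviations only, and here LF is taken as low-fat feeding, HF as high-fat feeding, CR as restricted calories and Ex as exercise, as studies of this kind use them. All mice were wild-type C57BL/6J, diets and treatments started at 5 weeks of age, and polyA RNA of whole liver was taken at 62 weeks. LF mice had the LF diet with no CR and no Ex, and HF+Ex mice had the HF diet with Ex. HF mice, used below for side-by-side values, had the HF diet with no CR and no Ex, and LF+Ex mice the LF diet with Ex. The labels give neither sex nor whether a library is 1 animal, so the p-values reflect spread among these libraries, which may be technical.

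Long feeding of fat leads the liver to store triglyceride in lipid droplets, and immune cells and interferon-driven genes often become active in such livers. Fatty acids are burned in mitochondria and peroxisomes, and the nuclear receptor PPAR alpha switches on many of the genes for this in fasting or fat feeding. Exercise is known to draw on liver fat and glycogen. HF+Ex and LF differ in both diet and exercise, so from this comparison alone their parts cannot be told apart. A pair of comparisons from the same model stand beside it: HF against LF, which shares the LF libraries, and HF+Ex against HF, which shares the HF+Ex libraries and is the test of whether the difference from LF was changed when exercise was added.

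The deposited values are RPKM, in which read numbers are divided by transcript length and by library size. A difference below is one of group means of log2(RPKM + 1), with its standard error (SE) from limma, and a gene is called when its two-sided Benjamini-Hochberg adjusted p over all 10355 genes is under 0.05. Depth estimated from the steps among the lowest values was 27.2, 33.3 and 23.6 M reads in LF 1 to 3 and 24.6, 26.7 and 27.3 M reads in HF+Ex 1 to 3. Hepatocyte markers summed to 62990, 52731 and 60141 RPKM in LF and to 52652, 55161 and 51560 RPKM in HF+Ex. The 10 most abundant transcripts took 21.3% to 24.6% of the RPKM sum in LF and 27.2% to 27.4% in HF+Ex. This share counts Alb, which is listed at 0 in the 3 LF libraries and above 0 in the 3 HF+Ex libraries, so the groups cannot be compared by it. LF 2 held the most bile duct cell transcripts of the 6 libraries, 158 RPKM over 7 markers against 22.9 to 65.3 RPKM. The pancreas transcript Prss2 was at most 0.452 RPKM in these 6 libraries, but 5.92 to 261 RPKM in LF+Ex 1, HF+CR 1 and LF+CR 1, which enter only the estimate of spread.

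limma called 127 of the 10355 genes, a background share of 1.23%, with 62 higher in HF+Ex (0.599%) and 65 lower (0.628%). The 3 HF+Ex values lay wholly above or below the 3 LF values for 2334 genes (22.5%), among them all 127 called. At an unadjusted p under 0.05 there were 1897 genes (18.3%). HF against LF gave 42 called genes (0.406%). LF+Ex against LF gave 0, with 944 (9.12%) at an unadjusted p under 0.05. In HF+Ex against HF no gene was called (0%), 376 genes (3.63%) had an unadjusted p under 0.05, and the lowest adjusted p was 0.291, for Tmem238. The absence of calls does not show that HF+Ex equals HF, so intervals of that difference are given with the genes below. The median difference of all genes was -0.05 for HF+Ex against LF, -0.02 for HF against LF and -0.02 for HF+Ex against HF. With median-of-ratios scaling 304 genes were called and 60.5% of them were higher, against 48.8% here.

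**Figure D1:**
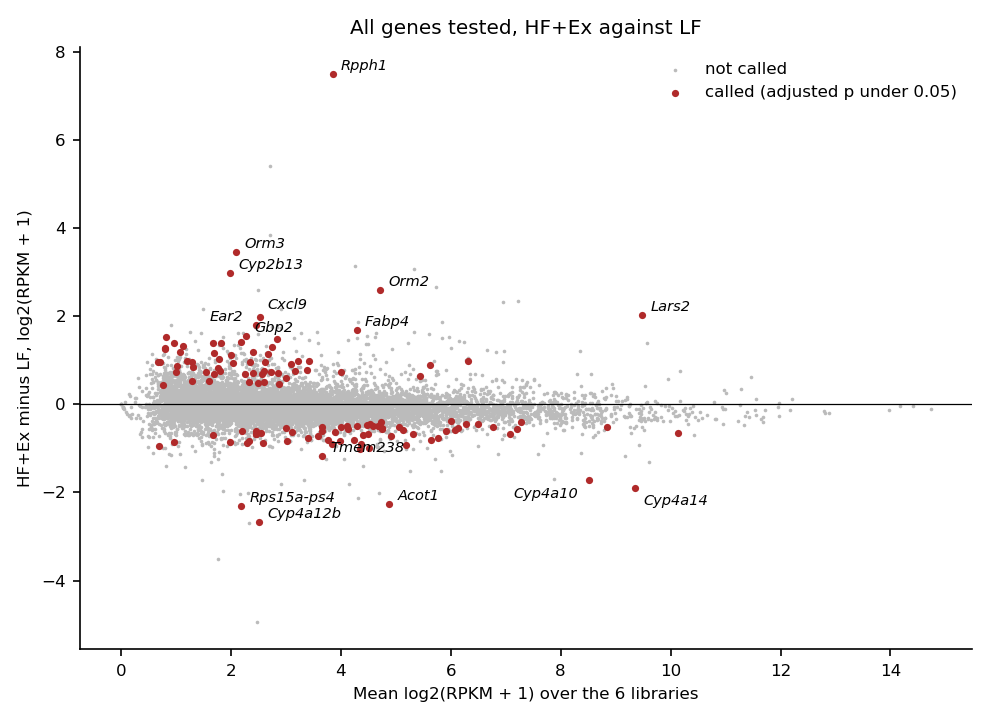
Difference between HF+Ex and LF (y axis, log2 of RPKM + 1) against the mean level over the 6 libraries (x axis, same scale) for the 10355 genes tested, with the 127 called genes in red. Rpph1 stands highest at 7.50, and Cyp4a12b is the lowest called gene at -2.67.

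How many genes were called rested on single libraries. Without LF 1, LF 2 or LF 3 the count was 26, 127 and 59, and without HF+Ex 1, HF+Ex 2 or HF+Ex 3 it was 11, 37 and 17. The 127 genes called without LF 2 were 104 higher and 23 lower, and 66 of them were among the 127 called with it. Of the 32 called genes named by the rule given under processing, 6 were called with each of the 6 libraries left out in turn: Orm3, Cyp2b13, Ear2, Fabp4, Fbxo21 and Tmem238. The other 26 lost the call in at least 1 of these fits, each with its direction kept. The fits that lost a call are given with the genes below.

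The largest difference belonged to an RNA that is not a messenger. Rpph1 (NR_002142, chromosome 14, 50807447 to 50807771), the RNA part of the tRNA-processing enzyme RNase P, was listed at 0.237 RPKM in LF 2 and at or near 0 in LF 1 and LF 3. In HF+Ex it was at 463, 105 and 148 RPKM, and the groups did not overlap. HF was at 134, 10.5 and 39.4 RPKM. The difference in HF+Ex was 7.50 ± 1.4 (limma adjusted p = 0.0263), a size that depends on the pseudocount because LF is near 0. Lars2, mitochondrial leucyl-tRNA synthetase, was at 308, 376 and 377 RPKM in LF and at 2242, 923 and 1451 RPKM in HF+Ex. Its listed level was higher by 2.03 ± 0.38 (limma adjusted p = 0.0263), and HF was at 1187, 490 and 932 RPKM. Whether these reads come from the messenger of the synthetase was not tested. Rmrp, the RNA of the related enzyme RNase MRP and picked after its values were seen, was listed at 0 in every LF library, against 82.0, 15.4 and 55.1 RPKM in HF+Ex. HF+Ex 1 was the highest of the 18 libraries for Rmrp.

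Rpph1 and Rmrp RNA carry no long polyA tail, and a change in RNA selection and a change in their expression cannot be told apart here. Each HF+Ex library was above each LF library for Rpph1 and Rmrp. In the other groups Rmrp varied widely among libraries. It ranged from 0 to 22.8 RPKM in LF+CR, 0 to 30.5 RPKM in LF+Ex and 0 to 28.2 RPKM in HF. In HF+CR it ranged from 0.495 to 16.5 RPKM. The highest library of each of these groups lay above HF+Ex 2 (15.4 RPKM), so Rmrp did not follow the groups alone. With the log2(RPKM + 1) of Rpph1 as a covariate, a setting chosen after seeing the data, 0 genes were called in HF+Ex against LF by limma and 451 had an unadjusted p under 0.05. The median SE then rose from 0.154 to 0.259. Rpph1 did not overlap between LF and HF+Ex, so the covariate shares variation with the group difference itself. The lost calls therefore cannot be assigned to either. The part of this RNA class in the other differences was not tested. Without LF 1, LF 3, HF+Ex 1 or HF+Ex 3, Rpph1 and Lars2 both lost the call, and Rpph1 lost it without HF+Ex 2 as well, at adjusted p up to 0.117.

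**Figure D2:**
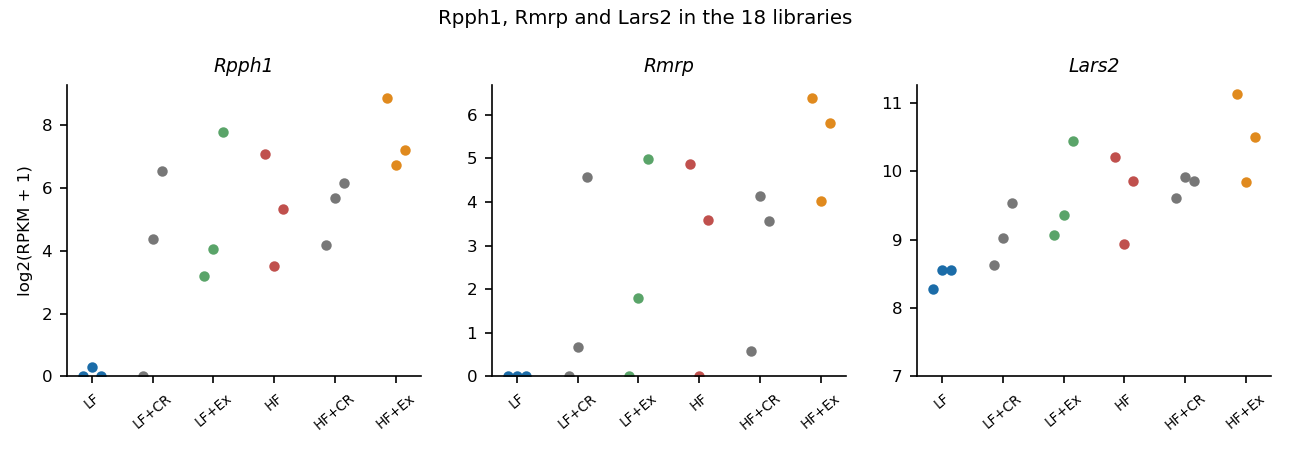
Levels of Rpph1, Rmrp and Lars2 (y axis, log2 of RPKM + 1; the axis of Lars2 starts at 7) in the 3 libraries of each of the 6 groups, 1 point per library. In all 3 panels each HF+Ex library lies above the 3 LF libraries.

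Of 35 tested genes of the interferon response 8 rose in HF+Ex and 0 fell, against 0.599% of all genes higher. Interferons signal through STAT factors, which bind GAS and ISRE elements in promoters and switch on antiviral and antigen-presenting genes. The list's median difference was 0.75 where that of all genes was -0.05. In HF against LF the median of the same list was 0.73. Summed over the list, LF held 285, 381 and 249.5 RPKM and HF+Ex held 452, 449 and 480 RPKM. LF 2 was the highest LF library and LF 3 the lowest, and the groups did not overlap.

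Cxcl9 (NM_008599, chromosome 5, 92321331 to 92328079), a chemokine that draws T cells, was at 2.83, 1.94 and 1.12 RPKM in LF and at 11.7, 6.77 and 14.1 RPKM in HF+Ex. It rose by 1.99 ± 0.35 (limma adjusted p = 0.0194), and in HF it was at 9.26, 14.1 and 5.62 RPKM. Gbp2, a guanylate-binding protein that attacks intracellular pathogens, was at 1.93, 2.91 and 0.99 RPKM in LF and at 8.18, 5.41 and 8.64 RPKM in HF+Ex. Its difference was 1.55 ± 0.30 (0.0290). Gbp7 of the same family was at 1.48 to 2.10 RPKM in LF and at 4.33 to 5.95 RPKM in HF+Ex, with a difference of 1.12 ± 0.19 (0.0147). Ifi47, an interferon-induced GTPase, was at 2.74, 6.92 and 1.59 RPKM in LF and at 11.5, 8.51 and 13.2 RPKM in HF+Ex, where LF 2 came closest to the HF+Ex range. It rose by 1.49 ± 0.33 (0.0458).

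The other called members, named after their values were seen, were Ifit3, Tgtp1, Tap1 and Samd9l. Ifit3, an inhibitor of viral RNA translation, was at 3.58, 4.79 and 1.98 RPKM in LF and at 8.53, 7.66 and 9.25 RPKM in HF+Ex, a difference of 1.14 ± 0.26 (limma adjusted p = 0.0495). Tap1, which pumps peptides to class I molecules, was at 6.33 to 7.74 RPKM in LF and at 10.9 to 14.3 RPKM in HF+Ex. Tgtp1, a T cell-specific GTPase, was listed at 0 in LF 3 and reached at most 0.310 RPKM in LF, against 0.754 to 2.76 RPKM in HF+Ex. Samd9l, an antiviral factor, went from 1.39 to 2.61 RPKM in LF to 3.80 to 5.48 RPKM in HF+Ex. Reads of Gbp, Ifit3 and Tgtp genes may be split with close copies.

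Adding exercise to the HF diet left no called difference in these genes. HF+Ex minus HF was 0.18 for Cxcl9, with a 95% interval from -0.56 to 0.92, and 0.23 for Gbp2, from -0.41 to 0.87. The same difference was 0.31 for Gbp7, from -0.09 to 0.71, and 0.03 for Ifi47, from -0.66 to 0.73. The intervals include 0. Over the list the median of HF+Ex minus HF was 0.06. Of the 35 members 0 had an unadjusted p under 0.05 in limma, against 3.63% of all genes. The 8 called interferon genes became 4 with a pseudocount of 0.1, 4 with no filter on low values and 5 with the replicate block. They became 3 of 19 tested with a mean of at least 5 RPKM, and 0 with only these 6 libraries in the fit. They became 12 with median-of-ratios scaling and 13 with quantile normalization. The count was 3 without the pancreas libraries, 12 without the bile duct libraries and 0 with Rpph1 as a covariate, where the median was 0.37. Leaving out HF+Ex 1 or HF+Ex 3 ended the calls of Cxcl9, Gbp2, Gbp7 and Ifi47, at adjusted p up to 0.164. Cxcl9, Gbp2 and Ifi47 lost theirs without LF 3, Gbp2 and Ifi47 without LF 1, and Ifi47 without HF+Ex 2. The list then held 2, 10 and 1 called genes without LF 1, LF 2 and LF 3, and 0, 4 and 0 without HF+Ex 1, HF+Ex 2 and HF+Ex 3.

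The promoters of the called interferon genes that hold an ISRE core are shown because interferon-activated factors are known to bind such elements. They are RefSeq windows on GRCm38.p6, from 250 bases before the gene's start to 50 after it: Gbp2 on chr3:142620413-142620712 (plus strand), Gbp7 on chr3:142530086-142530385 (plus), Ifit3 on chr19:34583279-34583578 (plus) and Tgtp1 on chr11:48992197-48992496 (minus). Each is printed 5′ to 3′ on the gene's strand, with matches to the ISRE core (GAAA, any 2 bases, GAAA) or the GAS motif TTCNNNGAA, on either strand, in capitals.
Gbp2: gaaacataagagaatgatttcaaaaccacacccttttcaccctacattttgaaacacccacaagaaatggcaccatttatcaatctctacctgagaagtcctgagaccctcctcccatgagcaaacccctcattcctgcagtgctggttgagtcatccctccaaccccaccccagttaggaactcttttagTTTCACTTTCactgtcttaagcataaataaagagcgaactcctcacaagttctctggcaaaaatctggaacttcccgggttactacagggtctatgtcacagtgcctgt
Gbp7: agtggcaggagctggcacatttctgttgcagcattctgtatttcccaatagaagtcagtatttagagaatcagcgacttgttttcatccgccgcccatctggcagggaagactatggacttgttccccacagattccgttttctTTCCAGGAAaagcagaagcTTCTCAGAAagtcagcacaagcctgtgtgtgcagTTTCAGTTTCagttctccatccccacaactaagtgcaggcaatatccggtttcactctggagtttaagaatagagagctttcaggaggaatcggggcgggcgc
Ifit3: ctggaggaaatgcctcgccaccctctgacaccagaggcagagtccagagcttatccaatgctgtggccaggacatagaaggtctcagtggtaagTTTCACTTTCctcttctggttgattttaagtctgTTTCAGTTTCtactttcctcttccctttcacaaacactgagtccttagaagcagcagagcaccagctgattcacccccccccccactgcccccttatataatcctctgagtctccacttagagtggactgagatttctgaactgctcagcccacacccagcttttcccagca
Tgtp1: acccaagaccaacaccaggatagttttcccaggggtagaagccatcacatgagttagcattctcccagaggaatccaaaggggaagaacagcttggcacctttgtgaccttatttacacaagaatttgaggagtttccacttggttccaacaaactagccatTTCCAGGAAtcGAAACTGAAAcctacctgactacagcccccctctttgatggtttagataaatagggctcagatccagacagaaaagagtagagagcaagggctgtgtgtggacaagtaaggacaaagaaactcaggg
Counted from the gene's start, with -1 the base before it, the ISRE core began at -59 in Gbp2, -53 in Gbp7, -77 in Tgtp1, and -156 and -122 in Ifit3. GAS matches began at -106 and -87 in Gbp7 and at -88 in Tgtp1, and none overlapped an ISRE core. Cxcl9, Ifi47, Samd9l and Tap1 held neither in this window. Of 29 list members with a RefSeq promoter 15 held the ISRE core (51.7%), against 3.49% of all 27025 promoters and 3.08% of the 8277 of tested genes. The GAS motif was in 9 of the 29 (31.0%) and in 8.47% of all promoters. A match describes these letters only and names no bound factor.

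Class II antigen presentation genes, which show peptides to helper T cells, had differences of 1.17 to 1.63 in all 7 tested members, and 1 of the 7 passed. That was H2-DMb1 (NM_010387), a peptide-loading chaperone, at 1.82, 3.20 and 0.852 RPKM in LF and at 7.39, 5.57 and 6.52 RPKM in HF+Ex, which rose by 1.41 ± 0.32 (limma adjusted p = 0.0458). It lost the call in each fit that left out 1 of the 6 libraries other than LF 2, at adjusted p up to 0.165. The list's median was 1.42, and 1.12 in HF against LF. Cd74, the class II invariant chain, was at 60.4, 85.4 and 17.4 RPKM in LF and at 134, 113 and 121 RPKM in HF+Ex, with a difference of 1.42 (adjusted p = 0.120). Without the bile duct libraries, one of which is LF 2, all 7 members passed. None passed with a pseudocount of 0.1, with no filter, with the mean minimum of 5 RPKM, with only these 6 libraries, with the replicate block, without the pancreas libraries or with Rpph1 as a covariate.

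Macrophage and Kupffer cell markers gave 0 calls among 21 members, where 1.23% of all genes were called. The median difference of these markers was 0.69 in HF+Ex and 0.49 in HF. Their sum was 395, 604 and 245 RPKM in LF and 645, 622 and 528 RPKM in HF+Ex, so LF 2 lay inside the HF+Ex range and LF 3 far below it. Adgre1, the macrophage surface protein F4/80, was at 3.27 to 6.13 RPKM in LF and at 7.07 to 7.60 RPKM in HF+Ex (adjusted p = 0.275). Cd163, the haemoglobin scavenger receptor of resident macrophages, was at 1.47 to 2.41 RPKM in LF and at 0.0303, 0.919 and 0.00871 RPKM in HF+Ex (-1.15, adjusted p = 0.110). Gpnmb, a marker of lipid-laden macrophages, was at 0.880, 4.26 and 0 RPKM in LF and at 5.82, 5.69 and 2.57 RPKM in HF+Ex (adjusted p = 0.413). Lymphocyte markers, 5 tested, summed to 1.61 to 8.34 RPKM in LF and 4.78 to 9.03 RPKM in HF+Ex. In RNA of whole liver, more cells of a type and more RNA per cell cannot be told apart, and the part of these cells in the interferon and class II values was not tested.

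Ear2 (NM_007895, chromosome 14, 44102654 to 44103531), an eosinophil-associated ribonuclease, was at 1.68, 2.66 and 1.57 RPKM in LF and at 10.6, 8.98 and 8.13 RPKM in HF+Ex. It rose by 1.80 ± 0.24 (limma adjusted p = 0.00379), and HF was at 6.92, 13.3 and 5.84 RPKM. Sdcbp2, a syntenin adaptor protein, was at 0, 0.102 and 0 RPKM in LF and at 2.89, 2.52 and 0.923 RPKM in HF+Ex (1.53 ± 0.34, 0.0458). Lyve1, a hyaluronan receptor of lymphatic and sinusoidal endothelium, rose from 2.17, 0.510 and 0.599 RPKM to 3.54, 5.29 and 3.89 RPKM (1.4 ± 0.31, adjusted p = 0.0458). It was the 1 called member of 12 endothelial genes, whose median was 0.01. Postn, periostin of the extracellular matrix, was at 1.67, 1.5 and 1.08 RPKM in LF and at 4.23, 4.17 and 3.45 RPKM in HF+Ex, and rose by 1.04 ± 0.17 (0.0139). It was the 1 called member of 23 stellate cell and matrix genes (median 0.32), while Col1a1, collagen I, was at 0.320 to 3.12 RPKM in LF and 3.68 to 7.13 RPKM in HF+Ex (adjusted p = 0.256). Ear2 was called in every fit that left out a library, Postn lost the call without HF+Ex 1 (adjusted p = 0.0849), Sdcbp2 in all 6 fits, and Lyve1 in all but the fit without LF 1.

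Acute-phase proteins are made by hepatocytes under cytokines of inflammation. Of 27 tested 3 rose (Orm3, Orm2 and Steap4) and 0 fell, against 0.599% of all genes higher. The list's median difference was 0.33 in HF+Ex and 0.25 in HF, beside -0.05 and -0.02 for all genes. Orm3 (NM_013623, chromosome 4, 63356069 to 63359506), an orosomucoid, was at 0.739, 0.213 and 0 RPKM in LF and at 17.7, 14.4 and 8.77 RPKM in HF+Ex. It rose by 3.46 ± 0.41 (limma adjusted p = 0.00379), and HF lay at 6.20, 11.6 and 5.04 RPKM. Orm2, its neighbour, went from 9.98, 18.7 and 4.73 RPKM to 99.2, 67.4 and 38.6 RPKM (2.59 ± 0.60, adjusted p = 0.0495). Steap4, a metalloreductase, was at 30.9, 39.1 and 35.5 RPKM in LF and at 68.8, 77.4 and 54.0 RPKM in HF+Ex (0.90 ± 0.19, adjusted p = 0.0394).

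HF+Ex 1 was the highest and HF+Ex 3 the lowest HF+Ex library for Orm3, Orm2, Saa1 and Lcn2. Saa1, a serum amyloid, was at 78.5, 77.8 and 26.1 RPKM in LF and at 448, 271 and 173 RPKM in HF+Ex, a difference of 2.32 that did not pass (adjusted p = 0.0647). Lcn2, an iron-trapping lipocalin, was at 16.5, 42.7 and 2.52 RPKM in LF and at 209, 131 and 56.7 RPKM in HF+Ex (3.07, adjusted p = 0.145). Against HF, HF+Ex differed by 0.79 for Orm3, with a 95% interval from -0.09 to 1.66, and 0.54 for Orm2, from -0.74 to 1.82. The split of reads among orosomucoid genes and among serum amyloid genes is uncertain. Orm2 lost its call in all single-library fits but the one without LF 2, and so did Steap4. The 3 calls of the list became 1 with no filter or with only these 6 libraries and 5 with either scaling, beside 1 lower with quantile normalization. They became 8 without the bile duct libraries and 0 with Rpph1 as a covariate. The list held 4 called genes without LF 2 and 1 without any other single library, Orm3 being called in each fit.

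**Figure D3:**
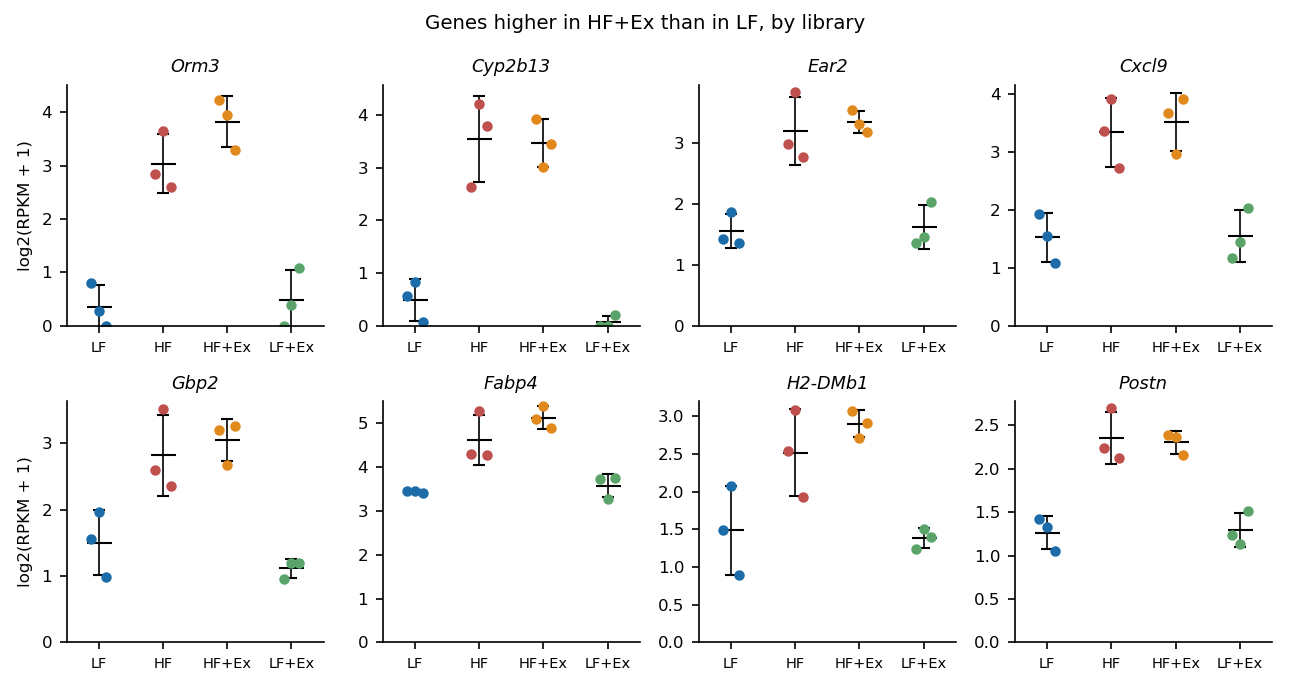
Levels of 8 called genes (y axis, log2 of RPKM + 1) in the LF, HF, HF+Ex and LF+Ex libraries, 1 point per library, with the mean and SD of n = 3 as bars. In each panel the HF+Ex points lie above the 3 LF points, and the HF and HF+Ex points overlap.

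Among 21 lipid droplet and triglyceride storage genes 1 was called, Fabp4 (NM_024406, chromosome 3, 10204342 to 10208616), a fatty acid carrier of fat cells and macrophages. It was at 10.0, 10.1 and 9.60 RPKM in LF and at 33.5, 41.4 and 28.6 RPKM in HF+Ex, and rose by 1.69 ± 0.25 (limma adjusted p = 0.00771). In HF it was at 18.9, 37.8 and 18.4 RPKM, and HF+Ex minus HF was 0.51, with a 95% interval from -0.03 to 1.05. The list's median was 0.04 in HF+Ex and 0.17 in HF. It also was the 1 called member of 13 PPAR gamma linked uptake genes (median 0.03).

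Cidea, which fuses lipid droplets, was at 26.5, 0.509 and 5.40 RPKM in LF and at 44.9, 71.1 and 53.3 RPKM in HF+Ex. The 3 LF libraries spread over a wide range, and the difference of 3.13 did not pass (limma adjusted p = 0.117). HF was at 44.9, 72.2 and 48.0 RPKM, and HF+Ex minus HF was 0.04, with a 95% interval from -2.09 to 2.17. Cidec, its relative, was at 38.5, 28.7 and 8.92 RPKM in LF and at 50, 93.6 and 72.2 RPKM in HF+Ex (adjusted p = 0.300). Plin2 and Plin4, droplet coat proteins, overlapped between the groups, at 265 to 510 against 339 to 467 RPKM for Plin2 and 6.56 to 32.9 against 14.6 to 23.9 RPKM for Plin4. Mogat1, a triglyceride-synthesis enzyme, did not overlap, at 1.39 to 4.94 RPKM in LF and 5.19 to 8.35 RPKM in HF+Ex (1.05, adjusted p = 0.221). Cd36, a fatty acid transporter, and its regulator Pparg overlapped and differed by 0.03 and -0.31. The direction of Pparg changed with its transcripts summed, to 0.49.

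No tested member of the lists of fatty acid synthesis, cholesterol synthesis and uptake, or gluconeogenesis and insulin response passed. Over all genes 1.23% were called. Of 25 fatty acid synthesis genes and 25 cholesterol genes 0 were called in either direction, with medians of -0.12 and 0.04. In HF against LF the cholesterol median was 0.32, with 0 called. Scd1, the stearoyl-CoA desaturase, ranged from 885 to 2614 RPKM in LF and from 351 to 1938 RPKM in HF+Ex, with HF+Ex 1 lowest. Fasn, fatty acid synthase, was at 14.1 to 42.6 and 22.2 to 55.8 RPKM, and its regulator Srebf1 at 17.5 to 55.8 and 35.8 to 67.2 RPKM. Sqle, squalene epoxidase, was at 1.17 to 2.68 RPKM in LF, 1.36 to 2.67 RPKM in HF+Ex and 3.18 to 6.99 RPKM in HF, whose 3 values lay above the HF+Ex ones. Against HF, Sqle differed by -0.92 in HF+Ex, with a 95% interval from -1.89 to 0.06. Cyp7a1, the rate-limiting enzyme of bile acid synthesis, overlapped between LF and HF+Ex and differed by 0.11. Cyp8b1, the sterol 12-alpha hydroxylase, overlapped too and differed by -0.25.

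Pck1, a rate-limiting enzyme of gluconeogenesis, was at 1119, 849 and 902 RPKM in LF and at 498, 502 and 505 RPKM in HF+Ex. The HF+Ex libraries lay within a narrow range below all LF libraries, with HF at 629, 561 and 580 RPKM between them, but the difference of -0.92 ± 0.34 did not pass (limma adjusted p = 0.166). Of 25 gluconeogenesis and insulin-response genes 0 were called, at a median of -0.10, where 1.23% of all genes were called. Ppargc1a, a coactivator of energy metabolism, was at 0.764 to 1.67 RPKM in LF and 0.892 to 1.44 RPKM in HF+Ex.

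Among 39 targets of PPAR alpha and genes of fatty acid oxidation, 4 fell in HF+Ex (Acot1, Cyp4a14, Cyp4a10 and Cyp4a32) and 0 rose, against 0.628% of all genes lower. The list's median was -0.27 in HF+Ex and -0.07 in HF, beside -0.05 and -0.02 for all genes. The 4 that fell are not enzymes of the beta-oxidation spiral: Acot1 splits acyl-CoA to free fatty acid and the Cyp4a enzymes hydroxylate the far end of fatty acids. Acot1 (NM_012006, chromosome 12, 84009502 to 84017670) was at 63.7, 87.8 and 45.9 RPKM in LF and at 8.16, 14.9 and 15.8 RPKM in HF+Ex. It fell by 2.26 on the log2 scale (SE 0.43, limma adjusted p = 0.0271), and HF stood between at 17.1, 22.2 and 24.8 RPKM.

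Cyp4a14 (NM_007822, chromosome 4, 115486200 to 115496158) was at 1108, 2057 and 881 RPKM in LF and at 238, 338 and 478 RPKM in HF+Ex. Its difference was -1.9 ± 0.44 (limma adjusted p = 0.0495), with LF 2 the highest of the 6 libraries. Cyp4a10 was at 648, 792 and 555 RPKM in LF and at 135, 225 and 265 RPKM in HF+Ex (-1.71 ± 0.38, 0.0458). Cyp4a32 was at 24.6 to 27.6 RPKM in LF and at 13.7 to 19.4 RPKM in HF+Ex (-0.69 ± 0.15, 0.0394). In HF the values were 318, 608 and 708 RPKM for Cyp4a14 and 230, 364 and 367 RPKM for Cyp4a10, below all LF values and overlapping HF+Ex. Between HF+Ex and HF, Acot1 differed by -0.71, with a 95% interval from -1.64 to 0.21, and Cyp4a14 by -0.61, from -1.55 to 0.33. Ehhadh and Cyp4a31 of the list differed by -1.13 and -2.02 without passing, and Cpt1a, the gate of mitochondrial oxidation, by -0.03, turning to 0.10 with quantile normalization. Acot1 was called in 1 of the 6 single-library fits, Cyp4a32 in 2, and Cyp4a14 and Cyp4a10 in none, at adjusted p up to 0.190. The 4 calls of the list became 2 with a pseudocount of 0.1, with no filter, with the replicate block, without the pancreas libraries or without the bile duct libraries. They became 1 with only these 6 libraries in the fit and 0 with Rpph1 as a covariate. The list held 0, 1 and 1 called genes without LF 1, LF 2 and LF 3, and 0, 0 and 1 without HF+Ex 1, HF+Ex 2 and HF+Ex 3. The split among Cyp4a and among Acot copies is uncertain.

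Genes known to differ between the sexes in mouse liver, which growth hormone controls, were called in both directions. Of 27 male-biased genes 2 fell (Cyp4a12b and Srd5a1) and 0 rose, at a median of -0.28. Of 22 female-biased genes 1 rose (Cyp2b13) and 1 fell (Cyp4a14), at a median of -0.20. Among all genes 0.599% were called higher and 0.628% lower, and the median was -0.05. Cyp4a12b (NM_172306, chromosome 4, 115411624 to 115439034), a fatty acid hydroxylase of male liver, was at 9.25, 31.1 and 8.04 RPKM in LF and at 2.53, 1.12 and 0.541 RPKM in HF+Ex. It fell by 2.67 on the log2 scale (SE 0.55, limma adjusted p = 0.0392), and was called in 1 of the 6 single-library fits. Srd5a1, a steroid 5-alpha reductase, was at 26.5, 33.0 and 35.4 RPKM in LF and at 14.8, 15.7 and 15.3 RPKM in HF+Ex. It fell by 1.0 on the log2 scale (SE 0.19, adjusted p = 0.0272), and HF was at 15, 15.5 and 14 RPKM. Srd5a1 was called in 1 of the 6 fits too, the one without LF 1.

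Cyp2b13 (NM_007813, chromosome 7, 26061388 to 26096197), a cytochrome P450 of female liver, was at 0.481, 0.785 and 0.0478 RPKM in LF and at 14.3, 7.12 and 9.86 RPKM in HF+Ex. It rose by 2.97 ± 0.40 (limma adjusted p = 0.00379), and HF was at 5.24, 17.5 and 12.8 RPKM. HF+Ex minus HF was -0.08 for Cyp2b13, with a 95% interval from -0.93 to 0.77, 0.04 for Srd5a1, from -0.37 to 0.44, and 0.11 for Cyp4a12b, from -1.07 to 1.29. Its near copy Cyp2b9 overlapped between LF (57.8 to 85.2 RPKM) and HF+Ex (70.6 to 109 RPKM). Cyp4a12a, the copy of Cyp4a12b, was at 39.6 to 112 RPKM in LF and at 12.3 to 29.0 RPKM in HF+Ex, a difference of -1.51 (adjusted p = 0.154). Reads shared by these copies make the split between them uncertain. Slco1a1, a male-biased transporter of organic anions, was at 8.69, 4.14 and 40.1 RPKM in LF and at 2.41, 0.450 and 0.564 RPKM in HF+Ex (adjusted p = 0.0920). Elovl3, a fatty acid elongase, was at 51.9, 53.9 and 47.0 RPKM in LF and at 9.06, 11.7 and 15.8 RPKM in HF+Ex (adjusted p = 0.130). For Slco1a1 and Elovl3 the groups did not overlap although neither passed, and Mup20, a major urinary protein, overlapped (4563 to 10439 against 5326 to 7942 RPKM).

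**Figure D4:**
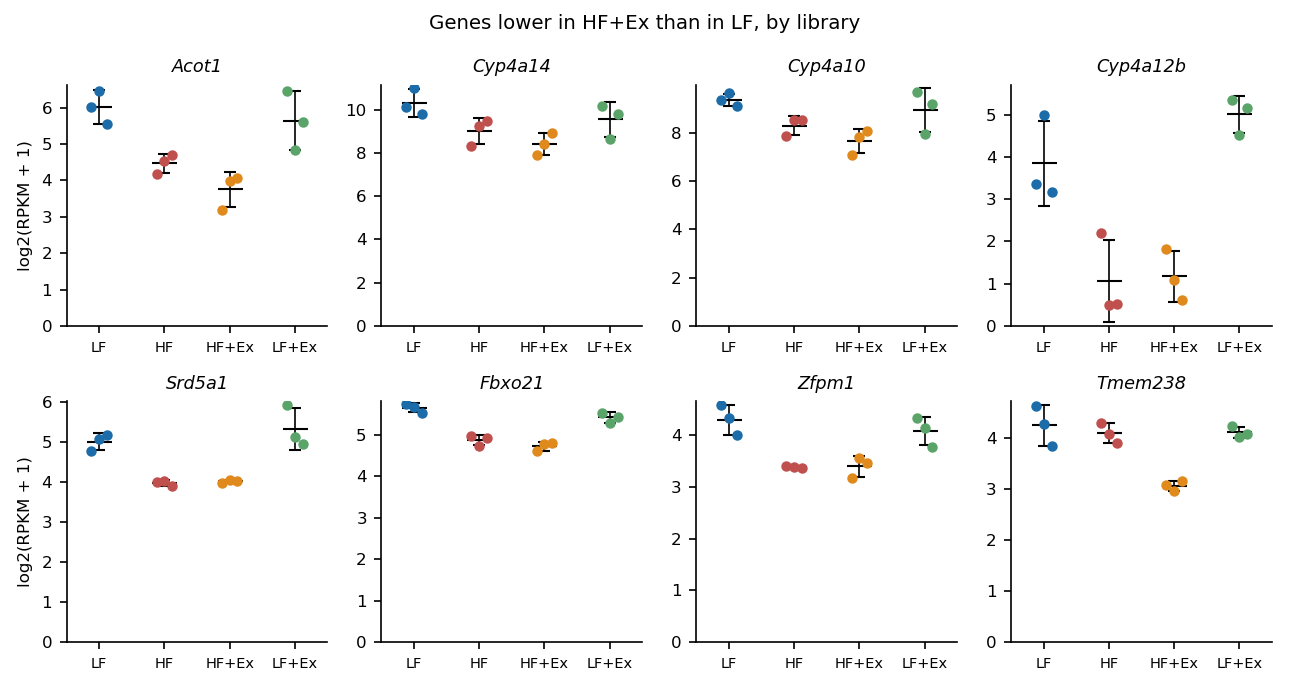
Levels of 8 called genes that are lower in HF+Ex (y axis, log2 of RPKM + 1) in the LF, HF, HF+Ex and LF+Ex libraries, 1 point per library, with the mean and SD of n = 3 as bars. HF points of Srd5a1, Fbxo21 and Zfpm1 lie with those of HF+Ex, whereas HF points of Tmem238 lie with those of LF.

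Fbxo21 (NM_145564, chromosome 5, 117976770 to 118010198), a subunit of a ubiquitin ligase, was at 52.9, 49.9 and 45.5 RPKM in LF and at 23.4, 26.4 and 27.0 RPKM in HF+Ex. It fell by 0.92 on the log2 scale (SE 0.12, limma adjusted p = 0.00379), and HF was at 30.2, 25.7 and 29.2 RPKM. Zfpm1, a cofactor of GATA transcription factors, was at 22.7, 18.9 and 14.9 RPKM in LF and at 7.92, 10.8 and 9.98 RPKM in HF+Ex (-0.90 ± 0.15, 0.0139). In HF it was at 9.60, 9.37 and 9.32 RPKM. HF+Ex minus HF was -0.14 for Fbxo21, with a 95% interval from -0.40 to 0.12, and 0.01 for Zfpm1, from -0.31 to 0.33. Hnf4a, a master regulator of hepatocyte genes, was at 170, 193 and 168 RPKM in LF and at 103, 135 and 125 RPKM in HF+Ex (-0.55 ± 0.12, 0.0458). It was the 1 called member of 15 hepatocyte genes (median -0.14) and of 15 growth hormone and IGF1 genes (median 0.07). Ces1c, a plasma carboxylesterase, was at 1202 to 1512 RPKM in LF and at 801 to 963 RPKM in HF+Ex (-0.64 ± 0.15, 0.0495). Hnf4a and Ces1c lost the call in all 6 single-library fits, and Zfpm1 without LF 1, HF+Ex 1 or HF+Ex 3, at adjusted p up to 0.178.

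Tmem238, a small membrane protein, was at 23.5, 18.4 and 13.2 RPKM in LF, at 18.6, 15.8 and 13.9 RPKM in HF and at 7.42, 6.77 and 7.87 RPKM in HF+Ex. It fell by 1.18 in HF+Ex against LF (SE 0.17, limma adjusted p = 0.00750), and differed by -0.15 in HF against LF (adjusted p = 0.699). HF+Ex minus HF was -1.02, with an unadjusted interval from -1.4 to -0.65, and this contrast did not pass over all genes (adjusted p = 0.291). Slc19a2, a thiamine transporter, was at 26.2 to 29.3 RPKM in LF and at 9.64 to 17.8 RPKM in HF+Ex (-1.0 ± 0.19, 0.0263). Gaa, the lysosomal enzyme that breaks down glycogen, was at 29.7, 30.0 and 23.1 RPKM in LF and at 9.41, 18.5 and 16.2 RPKM in HF+Ex (-0.91 ± 0.20, 0.0458). Ccdc84 went from 5.69 to 8.86 RPKM in LF to 2.82 to 4.02 RPKM in HF+Ex (-0.88 ± 0.19, 0.0455). Ppp1r15a, a phosphatase subunit of the stress response, was the 1 called member of 26 endoplasmic reticulum stress genes, at 4.83 to 6.75 RPKM in LF and 3.11 to 3.46 RPKM in HF+Ex (-0.68 ± 0.14, 0.0342). The ribosomal pseudogene Rps15a-ps4 was at 14.7, 10.7 and 4.72 RPKM in LF and at 2.26, 0.309 and 1.03 RPKM in HF+Ex (-2.31 ± 0.41, 0.0198), and reads of its parent gene may fall on it. HF+Ex 1 was lowest of its group for Slc19a2 and Gaa. With each of the 6 libraries left out in turn Tmem238 was called in all fits, Rps15a-ps4 in 3, Slc19a2 in 2, Gaa and Ppp1r15a in 1 and Ccdc84 in none, at adjusted p up to 0.165.

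Hspa5, a chaperone of the endoplasmic reticulum, was at 199 to 257 RPKM in LF and at 161, 450 and 194 RPKM in HF+Ex, where HF+Ex 2 stood apart. Dnaja1, a co-chaperone, was at 29.8 to 40.2 RPKM in LF and 26.3 to 35.8 RPKM in HF+Ex. Of the clock genes, 0 of 19 were called, where 1.23% of all genes were called. Dbp, a clock output gene, was at 64.1, 10.7 and 98.3 RPKM in LF and at 60.3, 70.3 and 67.6 RPKM in HF+Ex, with LF 2 lowest. Per2 was at 2.18 to 7.32 RPKM in LF, again lowest in LF 2, and at 6.42 to 8.76 RPKM in HF+Ex.

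**Figure D5:**
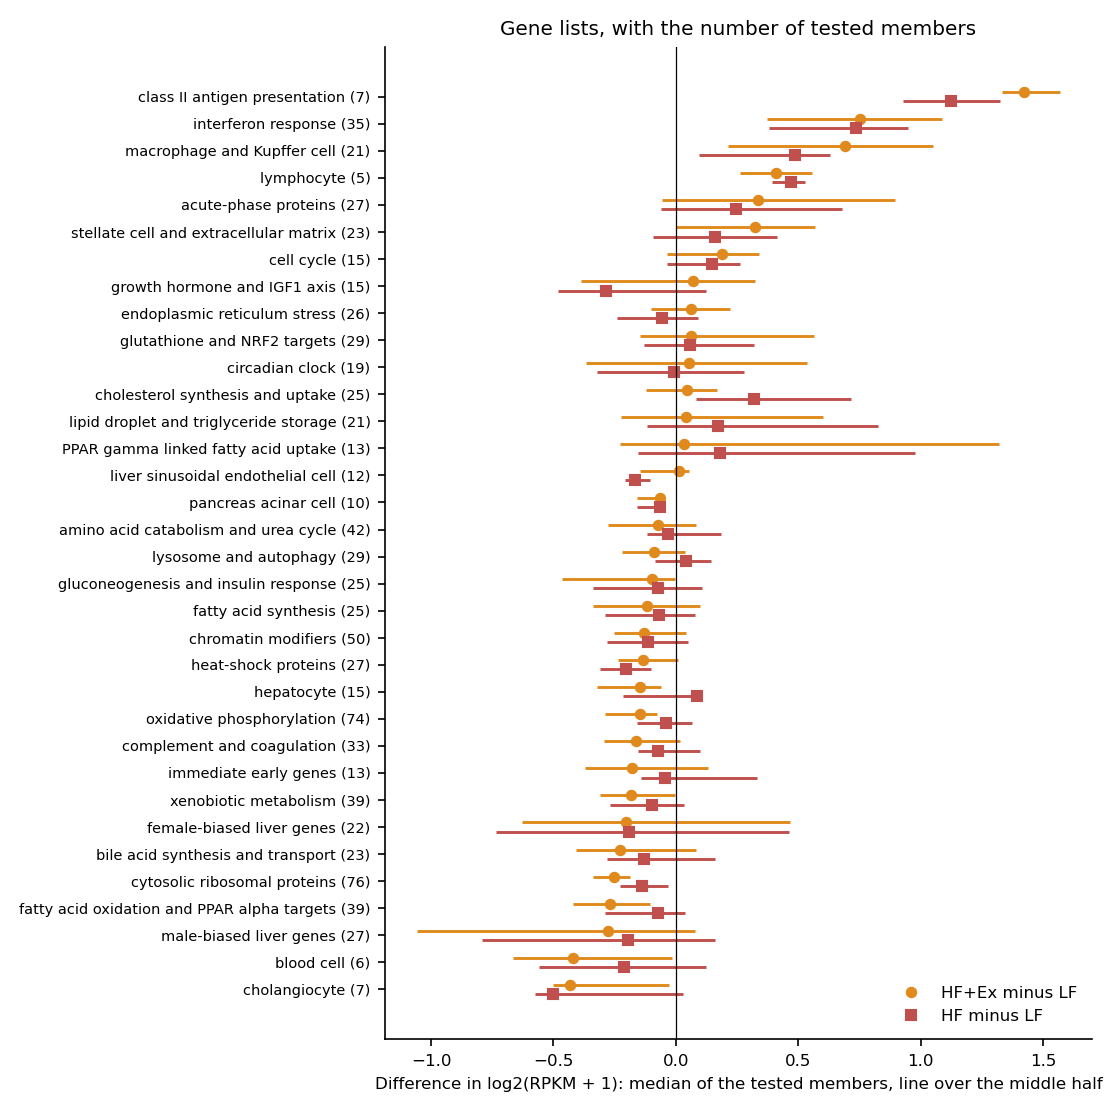
Median difference (x axis, log2 of RPKM + 1) of the tested members of each gene list with 5 or more of them, as HF+Ex minus LF (circles) and HF minus LF (squares), with lines from the lower to the upper quartile. Class II antigen presentation is highest in both, at 1.42 and 1.12, followed by the interferon response at 0.75 and 0.73. The comparisons share the LF libraries.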

How the data were processed

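PolyA RNA of 18 mouse liver libraries was measured in 6 groups of 3, grouped by their titles. The authors deposited RPKM per RefSeq transcript, and per the submitters' processing notes they used TopHat 1.4.1, Cufflinks 1.3.0 and mm10. The annotation version is not given in the sources used here, and no counts were used, so no counting intervals are given. An exact 0 is a listed value and can be a failed estimate. The sample files and the series table held the same 550476 values.

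Of 30582 rows 30183 were named through RefSeq GRCm38.p6 or GENCODE, and 399 kept their accession. For 4218 of 23532 genes with more than 1 row, the row of highest mean was used. Values were analysed as log2(RPKM + 1), a scale that understates changes of low genes, with limma 3.58.1 in R 4.3.3, with a mean per group over all 18 libraries, 12 residual degrees of freedom and a variance trend on intensity. Gene positions are RefSeq spans on GRCm38.p6. The model was tested on simulated data.

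The comparison, the 35 gene lists and 38 genes given whatever their result were chosen with earlier results of these data known. A further gene of that choice is not reported here. Named otherwise were the 12 called genes with the largest difference in each direction (mean of at least 2 RPKM in 1 group, groups not overlapping, no predicted genes) and up to 3 called members per list by p. Of 971 list entries 877 were tested. Alternatives were another pseudocount, filters, scalings, variance models, a replicate block, summed rows and leaving out each library. Leaving out the pancreas or bile duct libraries and the Rpph1 covariate were added after seeing the data.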

Additional observations from a re-analysis of the deposited data

How the results depend on the processing

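The number of genes called in HF+Ex against LF, 127, was 70 with a pseudocount of 0.1, 304 with median-of-ratios scaling, 316 with quantile normalization, 12 with only these 6 libraries in the fit, 53 without the pancreas libraries, 367 without the bile duct libraries and 0 with Rpph1 as a covariate (451 at an unadjusted p under 0.05). The fit of 6 libraries and the fits that leave libraries out have fewer samples behind their estimates. The Rpph1 covariate shares variation with the group difference itself, and the cause of the shifts was not tested. Of these calls, 70, 119, 120, 5, 50, 101 and 0 were among the 127. With no filter, a mean minimum of 5 RPKM, no trend or summed rows it was 113, 108, 104 and 132. Of those over that minimum 28 were higher and 80 lower, where 5704 genes were tested. Leaving out 1 library gave 11 to 127. HF+Ex against HF gave 0 in each of these settings, with 225 to 576 genes at an unadjusted p under 0.05. Libraries share replicate numbers only: deviations of same-numbered HF+Ex and LF libraries correlated at -0.13, -0.01 and 0.09 across genes, and the replicate block gave 90 calls, 83 of them among the 127. For HF+Ex and HF they correlated at 0.17, 0.05 and 0.21. Each of these HF+Ex libraries correlated best with the HF library of its own number. For HF+Ex 2 the 0.05 stood against 0.0007 with HF 3 and -0.05 with HF 1. With 3 libraries a group such a match can arise without pairing, and the design names none. The block gave 0 calls in HF+Ex against HF, with 380 genes at an unadjusted p under 0.05. Near 1 RPKM an estimate can be listed as 0, and the part of depth in this was not tested.

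Directions that turned belonged to genes that did not pass. With Rpph1 as a covariate the differences were -0.045 for Plin2, -0.074 for Plin4, -0.77 for Cd36, 0.012 for Scd1, -0.79 for Cyp7a1 and -0.78 for Cyp2b9. Without the bile duct libraries they were 0.13 for Pparg, -0.22 for Cyp7a1, -0.063 for Ppargc1a, 0.026 for Mup20 and -0.26 for Dbp. With summed rows Pparg was 0.49 and Ppargc1a -0.13, with quantile normalization Ppargc1a was -0.046 and Cpt1a 0.10, and with median-of-ratios scaling Cpt1a was 0.035. Leaving out single libraries gave ranges through 0 of -0.13 to 0.12 for Cd36, -0.14 to 0.12 for Cpt1a, -0.22 to 0.29 for Cyp7a1, -0.57 to 0.063 for Cyp8b1, -0.26 to 1.28 for Dbp, -0.39 to 0.35 for Hspa5, -0.57 to 0.026 for Mup20, -0.21 to 0.26 for Plin2, -0.77 to 0.13 for Pparg, -0.080 to 0.23 for Ppargc1a, -1.17 to 0.13 for Scd1 and -0.017 to 0.38 for Sqle.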

Other observations

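Other called genes, named after their values were seen, included genes of immune cells. Fcgr4, an activating IgG receptor of myeloid cells, was at 2.56, 3.79 and 1.5 RPKM in LF and at 7.63, 6.25 and 7.01 RPKM in HF+Ex. Ccl6, a chemokine, was at 3.18, 5.87 and 1.77 RPKM in LF and at 10.8, 9.34 and 8.71 RPKM in HF+Ex. Themis, a T cell signalling protein, was at or under 0.199 RPKM in LF and at 1.34 to 2.19 RPKM in HF+Ex. The T cell markers Cd3d, Cd3e, Cd3g, Cd4, Cd8a, Cd8b1 and Lck were too low to test. These markers reached at most 0.744 RPKM in LF and 0.613 RPKM in HF+Ex, and the part of T cells was not tested. Hk2, the hexokinase of muscle and fat, was at 0.130 to 0.579 RPKM in LF and at 1.86 to 2.40 RPKM in HF+Ex. Lower genes included Lcat, which esterifies cholesterol on lipoproteins, at 527 to 583 RPKM in LF and 377 to 393 RPKM in HF+Ex, and Pink1, a kinase that marks damaged mitochondria, at 93.9 to 112 RPKM in LF and 74.2 to 78.2 RPKM in HF+Ex.

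The next lowest p values of HF+Ex against HF after Tmem238 were those of H2-Ke6 and Xpa, neither of which passed (limma adjusted p = 0.700). H2-Ke6, a hydroxysteroid dehydrogenase, was at 80.1 to 88.0 RPKM in LF, 77.7 to 84.8 RPKM in HF and 56.4 to 58.0 RPKM in HF+Ex. Xpa, a DNA repair protein, was at 13 to 15.9 RPKM in LF, 11.6 to 16.1 RPKM in HF and 7.65 to 9.06 RPKM in HF+Ex. Among lists with no called member, 75 of 76 cytosolic ribosomal protein genes had a negative difference in HF+Ex against LF, with a median of -0.25, and 66 of 74 oxidative phosphorylation genes had one, with a median of -0.15. In HF against LF these medians were -0.14 and -0.04. The median of all genes was negative too, at -0.05 in HF+Ex against LF, and was 0.003 with median-of-ratios scaling. The sign counts were not repeated with that scaling. Lists with 0 called also were bile acid synthesis and transport (23 genes, median -0.23), complement and coagulation (33, -0.16), amino acid catabolism and urea cycle (42, -0.07), glutathione and NRF2 targets (29, 0.06), heat-shock proteins (27, -0.14), lysosome and autophagy (29, -0.09), chromatin modifiers (50, -0.13), cell cycle (15, 0.19) and immediate early genes (13, -0.18). The same held for bile duct (7, -0.43), pancreas (10, -0.07), fat cell (2, 1.05) and blood cell markers (6, -0.42). Over all genes 1.23% were called, beside the 0 in these lists. The fat cell median rests on Cfd and Car3 only. The fat cell markers Adipoq, Lep, Retn, Plin1 and Ucp1 were too low to test, at most 0.316 RPKM in LF and 0.147 RPKM in HF+Ex. Xenobiotic metabolism had 1 lower of 39, Ces1c, with a median of -0.18.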
